A study of Homo sapiens with 2 samples.

Results

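The 10 genes described here, TSC22D3, PER1, KLF9, SGK1, DUSP1, ZBTB16, CEBPD, ERRFI1, FAM107A and NFKBIA, are well-known direct targets of the glucocorticoid receptor. They were chosen for that reputation. The rule uses no measured value, but it was set with earlier results of these data known. All 10 were matched by symbol among the 60683 Ensembl genes of the deposited count table. The cells were HEK293T, a human line of embryonic kidney origin that carries the SV40 large T antigen, with a stable knockdown of FKBP5 by short hairpin RNAs. The 2 samples analysed here form 1 group, the FKBP5 knockdown, and no hormone treatment is named in the labels. Control cells were not analysed here, so the values are levels in knockdown cells and no change caused by the knockdown. The labels do not say whether separate cultures or clones were used, and the spread between the samples may therefore be technical only.

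Glucocorticoids such as cortisol cross the cell membrane and bind the glucocorticoid receptor, which waits in the cytoplasm in a complex with HSP90. FKBP5 is one of the co-chaperones of that complex and lowers the affinity of the receptor for hormone. It is itself a glucocorticoid-induced gene, so that it closes a feedback loop. The bound receptor enters the nucleus and recognises glucocorticoid response elements, which often lie far from the start site. Many of the genes it induces restrain other signals, among them NF-kappaB, MAP kinases and the EGF receptor. Several of them also answer to cAMP, serum or stress, so a level measured in culture is not a measure of the receptor's activity.

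For 8 of the 10 genes, RefSeq gave the sequence around the start of transcription in GRCh38.p14 (250 bases before to 50 after), with 15 start regions in all because some genes have several. ZBTB16 and CEBPD were not matched there. The regions of 4 genes are shown 5′ to 3′ on the strand of the gene, which is the minus strand for all of them. TSC22D3 had the highest level of the 10 and FAM107A the lowest, and DUSP1 and NFKBIA held a full CRE or NF-kappaB site. Capitals mark full matches on either strand to the CRE of CREB (TGACGTCA), the NF-kappaB site (GGG, any 2 bases, TTTCC) or the TATA box (TATAAA).
TSC22D3, start region 3 of 4, chrX:107717013-107717312: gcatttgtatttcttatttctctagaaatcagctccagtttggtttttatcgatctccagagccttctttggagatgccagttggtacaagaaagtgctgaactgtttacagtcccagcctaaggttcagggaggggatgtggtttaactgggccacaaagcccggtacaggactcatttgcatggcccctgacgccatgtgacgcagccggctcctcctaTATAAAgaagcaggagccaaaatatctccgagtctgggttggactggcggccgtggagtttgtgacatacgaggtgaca
DUSP1, chr5:172771146-172771445: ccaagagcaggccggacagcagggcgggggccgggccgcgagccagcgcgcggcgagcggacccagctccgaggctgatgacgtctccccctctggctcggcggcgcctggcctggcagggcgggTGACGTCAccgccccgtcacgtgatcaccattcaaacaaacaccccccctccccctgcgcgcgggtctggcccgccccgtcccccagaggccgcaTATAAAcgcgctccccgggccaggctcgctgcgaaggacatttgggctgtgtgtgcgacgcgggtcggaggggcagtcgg
NFKBIA, chr14:35404700-35404999: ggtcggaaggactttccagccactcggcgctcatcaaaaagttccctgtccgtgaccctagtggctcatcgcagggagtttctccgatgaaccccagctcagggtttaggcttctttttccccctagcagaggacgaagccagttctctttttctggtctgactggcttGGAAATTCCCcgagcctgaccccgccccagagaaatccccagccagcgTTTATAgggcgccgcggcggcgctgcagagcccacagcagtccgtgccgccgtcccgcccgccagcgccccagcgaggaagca
FAM107A, start region 1 of 3, chr3:58627561-58627860: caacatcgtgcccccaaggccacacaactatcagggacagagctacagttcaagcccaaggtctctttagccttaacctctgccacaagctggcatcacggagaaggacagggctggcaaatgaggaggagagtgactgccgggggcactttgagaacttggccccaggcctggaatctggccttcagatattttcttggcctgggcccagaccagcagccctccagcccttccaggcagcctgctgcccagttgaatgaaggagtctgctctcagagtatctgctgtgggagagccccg

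DUSP1 held the single CRE among the 15 regions, with its first base at position -125, counted from the start of transcription, and a TATA box at -30. In NFKBIA the NF-kappaB site began at -81 and read in the reverse direction. Region 3 of TSC22D3 held a TATA box at -29 and 2 copies of TGACG, the short form that is also part of the CRE. Over 34943 RefSeq start regions of the same length, 1.837% held the CRE, 1.912% the NF-kappaB site and 11.57% the TATA box, which 6 of the 15 regions held, in DUSP1, NFKBIA, SGK1 and TSC22D3. No region of these genes matched the glucocorticoid response element in its exact form (AGAACA, any 3 bases, TGTTCT), which 0.003% of all regions held. With so few matches anywhere, the absence from 15 regions says nothing about these genes, and forms with other bases were not searched. A single TGTTCT, which is part of that exact form, was found in 2 of the 15 regions (1 each of SGK1 and FAM107A), against 14.824% of all regions. The AP-1 site TGAGTCA was in none of the 15 and in 4.962% of all. The GC box GGGCGG was in 10 of the 15 and in 44.867% of all. All motifs were searched on both strands, and a match is a description of the sequence only.

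Sample 1 held 9997706 counts and sample 2 held 21284648, so levels are known less precisely in sample 1. The level of 3 counts, taken as the floor, was 0.289 CPM (counts scaled to library size) in sample 1 and 0.137 CPM in sample 2. All 10 markers listed for HEK293 cells averaged 1 CPM or more, led per kilobase by NEFL and VIM. Among markers of other cells, 1 of 5 for blood (CORO1A), 3 of 5 for fibroblasts, 2 of 4 for epithelial lines and 0 of 2 for hepatocytes did so. In bulk RNA, few cells with much of a transcript and many cells with little of it cannot be told apart. FKBP5, the targeted gene, was represented by 41 and 77 counts in samples 1 and 2, and the extent of its knockdown cannot be read without control cells.

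TSC22D3, whose product GILZ is a leucine zipper protein that mediates anti-inflammatory effects of glucocorticoids, was by far the most abundant of the 10. Levels of different genes are compared per length, as CPM per kilobase of the gene's merged exons, and are given as mean ± SD over the 2 samples. TSC22D3 stood at 254 ± 4.04 CPM per kb, 12.6 times the next gene, DUSP1. With the longest annotated transcript as the length it was 24.3 times the gene that then came next, PER1. DUSP1, PER1, NFKBIA and KLF9 followed between 11.5 and 20.2 CPM per kb, ERRFI1 was at 5.14 ± 0.232, and CEBPD, ZBTB16 and SGK1 lay between 0.591 and 2.24. FAM107A was near the floor at 0.0573 ± 0.00414 CPM per kb. The median of the 10 was 8.34 CPM per kb, against 4.75 over all genes that averaged 1 CPM or more and have a length in GENCODE 29. Of the 10 genes, 6 lay above 4.75. The 10 include FAM107A, which averaged under 1 CPM, while the median of 4.75 leaves such genes out. Over all genes with at least 1 count the median was 0.282 CPM per kb, and 9 of the 10 lay above it. Among protein-coding genes alone the median was 5.72 CPM per kb, and 5 of the 10 lay above it.

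**Figure D1:**
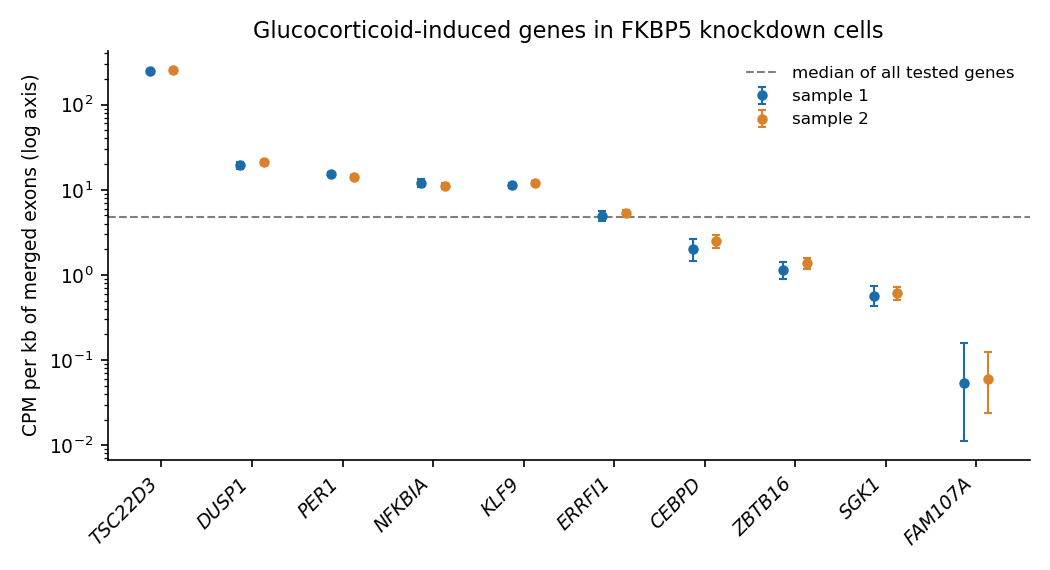
Level of each of the 10 genes in each knockdown sample, as CPM per kilobase of merged exons on a log axis. Points are samples, bars are 95% exact Poisson intervals (counting error only), and the dashed line is the median of all tested genes, 4.75. TSC22D3 lies at about 250 in both samples, 6 genes lie above the line by their mean and FAM107A has the widest intervals.

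The genes that encode regulators of transcription ranged most widely. TSC22D3 stood at 1195 CPM in sample 1 and at 1222 CPM in sample 2. These came from 12400 and 26713 counts, which were 81.5% and 81.8% of the counts of all 10 genes together. Per kilobase it exceeded 99.5% of the genes tested. TSC22D3 (ENSG00000157514) lies on chromosome X from 107713221 to 107777342 (GRCh38, GENCODE 29), where 1.49% of its exonic bases are covered by exons of NCBP2L on the other strand. Its transcripts start at distant sites, and the counts do not show which of them was used.

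PER1, a period protein of the circadian clock that represses its own activators, reached 107 CPM in sample 1 (with 100.4 to 113 as its 95% exact Poisson interval) and 99.9 CPM in sample 2 (95.7 to 104). The intervals overlap, and per kilobase PER1 had rank 3 of the 10 at 14.7 ± 0.677. KLF9, a zinc finger repressor of the Krüppel-like family that glucocorticoids and thyroid hormone induce, had 58.1 CPM in sample 1 (53.6 to 62.9) and 61.4 CPM in sample 2 (58.2 to 64.8). KLF9 lies at chr9:70384597-70414624 and PER1 at chr17:8140472-8156506, both on the minus strand (GRCh38, GENCODE 29), and 1.54% of the exonic bases of PER1 are shared with genes on its own strand. Per kilobase of merged exons KLF9 stood at 11.5 ± 0.449, beside 11.6 ± 0.703 for NFKBIA, but NFKBIA was 1.53 times KLF9 when the longest transcript gave the length.

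CEBPD, a bZIP factor of acute phase and adipocyte programmes, was low, with 45 counts or 4.34 CPM in sample 1 (3.16 to 5.80) and 118 counts or 5.40 CPM in sample 2 (4.47 to 6.47). ZBTB16, also called PLZF, is a BTB zinc finger repressor of progenitor cells and among the most strongly induced glucocorticoid targets in several human tissues. It had 75 counts or 7.23 CPM in sample 1 (5.69 to 9.06) and 191 counts or 8.74 CPM in sample 2 (7.54 to 10.1). ZBTB16 lies at chr11:114059593-114250676 and is the one gene of the 10 on the plus strand. Both genes were higher in sample 2 by value, and the intervals of the samples overlapped for each. Per kilobase, CEBPD exceeded 31.8% of the genes tested and ZBTB16 20.7%.

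Of the genes for a kinase and a phosphatase, the phosphatase was the more abundant. DUSP1, which dephosphorylates and switches off p38, JNK and ERK, had 405 counts or 39.0 CPM in sample 1 (35.3 to 43.0) and 927 counts or 42.4 CPM in sample 2 (39.7 to 45.2). SGK1, a kinase related to AKT that raises sodium transport in the kidney, had 59 counts or 5.69 CPM in sample 1 (4.33 to 7.34) and 134 counts or 6.13 CPM in sample 2 (5.14 to 7.26). DUSP1 lies at chr5:172768090-172771195 and SGK1 at chr6:134169246-134318112, and no exon of another gene covers either. The intervals of the samples overlapped for both genes. Per kilobase, DUSP1 stood at 20.2 ± 1.18 and exceeded 84.9% of the genes tested, while SGK1 stood at 0.591 ± 0.0315 and exceeded 10.2%.

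The inhibitors of signalling stood in the middle of the range. NFKBIA encodes IkappaB-alpha, which holds NF-kappaB in the cytoplasm. It had 297 counts or 28.6 CPM in sample 1 (25.5 to 32.1) and 574 counts or 26.3 CPM in sample 2 (24.2 to 28.5). ERRFI1, also called MIG6, binds the kinase domain of EGF receptor family members and blocks it. It had 216 counts or 20.8 CPM in sample 1 (18.1 to 23.8) and 485 counts or 22.2 CPM in sample 2 (20.3 to 24.3). NFKBIA lies at chr14:35401511-35404749, with no exon of another gene over it, and ERRFI1 at chr1:8004404-8026308, where 3.7% of its exonic bases are covered on the other strand. Neither gene was separated between the samples by its intervals. Per kilobase, NFKBIA exceeded 73.2% of the genes tested and ERRFI1 52.0%.

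FAM107A, also called DRR1, encodes an actin-associated protein of brain that stress and glucocorticoids induce there. It had 3 counts or 0.289 CPM in sample 1 (0.0596 to 0.845) and 7 counts or 0.320 CPM in sample 2 (0.129 to 0.660). The gene spans chr3:58564117-58627610. It was the one gene of the 10 with a mean under 1 CPM, and sample 1 stood at the floor itself. The other genes comprised 2 genes over 100 CPM, 4 between 10 and 100 and 3 between 1 and 10.

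The order of the levels per kilobase was TSC22D3, DUSP1, PER1, NFKBIA, KLF9, ERRFI1, CEBPD, ZBTB16, SGK1 and FAM107A. NFKBIA and KLF9 were the one pair of neighbours whose values overlapped, with NFKBIA 1.07 times KLF9 in sample 1 and 0.933 times in sample 2. In the other neighbouring pairs the counting intervals did not overlap in either sample. The nearest of these, PER1 over NFKBIA, stood at 1.26 in sample 1 and 1.29 in sample 2. DUSP1 over PER1 was 1.27 and 1.47, but this pair turned round to 0.92 (mean) when the longest annotated transcript gave the length. The level of TSC22D3 was then 533 CPM per kb, 2.10 times the value over merged exons. All other genes kept their place under that length, but CEBPD over ZBTB16 fell from 1.78 to 1.24 (means). Counting intervals were not compared at that length.

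The 2 samples were then compared gene by gene with a 2-sided exact binomial test of the counts, which includes no variation between cultures. It compares these libraries and not conditions. Of the 9 genes that averaged 1 CPM or more, 0 passed at an adjusted p under 0.05 (Benjamini-Hochberg over 15530 genes), where 8.97% of all genes did. At an unadjusted p under 0.05 there was 1 of the 9, TSC22D3, as against 3363 of the 15530 genes. Its ratio of sample 1 over sample 2 was 0.978 (95% exact interval 0.957 to 0.999, adjusted p = 0.197 by the binomial test). With the size factors of DESeq2 it passed the test at an adjusted p of 0.0294, with a log2 ratio of -0.05.

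By value, 7 of the 9 were higher in sample 2 and PER1 and NFKBIA were higher in sample 1. PER1 had a ratio of 1.07 (0.992 to 1.15) and NFKBIA 1.09 (0.944 to 1.26). The ratio lay lowest for CEBPD at 0.803, with an interval of 0.557 to 1.14, so a difference of that size was not resolved at this depth. Its neighbours in level, ZBTB16 and SGK1, had 0.827 (0.625 to 1.09) and 0.927 (0.671 to 1.27). DUSP1 at 0.920 (0.817 to 1.04), KLF9 at 0.946 (0.858 to 1.04) and ERRFI1 at 0.938 (0.795 to 1.10) had intervals that also held 1. The median log2 ratio of CPM + 1 over the 9 was -0.09, beside -0.01 over all genes tested. The SD of that log2 ratio over all genes was 0.28 at 1 to 10 CPM, 0.16 at 10 to 100 CPM and 0.11 at 100 CPM and over, and each of the 9 lay within the SD of its class.

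**Figure D2:**
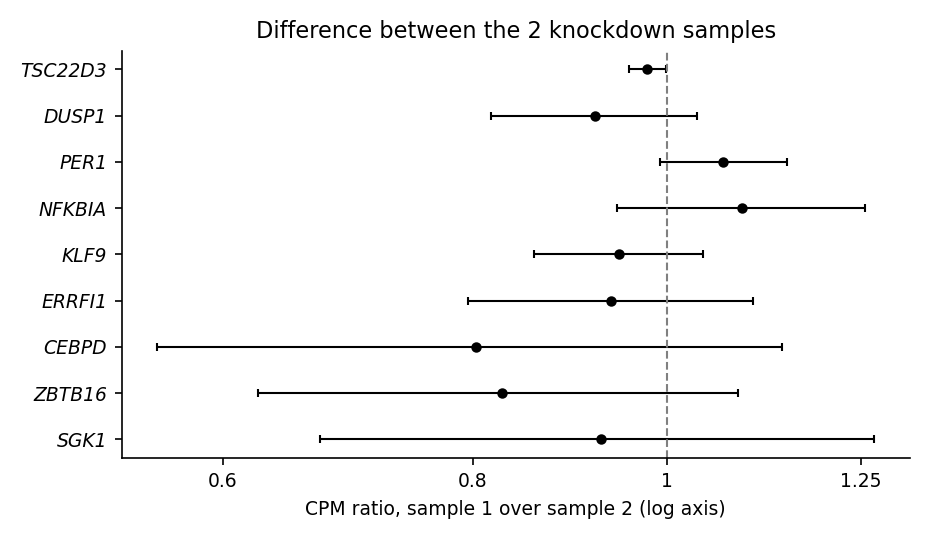
Ratio of CPM in sample 1 over sample 2 for the 9 genes that averaged 1 CPM or more, on a log axis. Points are ratios, bars are 95% exact intervals from the counts, and the dashed line marks equal levels. The interval of TSC22D3 ends at 0.999, just under 1, and those of the other 8 genes include 1.

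Each gene was set beside its paralogs. TSC22D3 was the leading member of its family of 4, at 16.8 times TSC22D4 (15.1 ± 0.919 CPM per kb), 37.6 times TSC22D2 (6.75 ± 0.0570) and 45.6 times TSC22D1 (5.56 ± 0.195). With the longest transcript as the length these folds were 22.7, 75.5 and 53.9. These relatives share the TSC box and the leucine zipper. PER1 likewise led the period genes, at 19.7 times PER2 (0.747 ± 0.00642 CPM per kb) and 40.4 times PER3 (0.365 ± 0.0276). Exons of other genes cover part of the exonic bases of some paralogs, with 10.52% of TSC22D4 covered on the same strand and 16.67% of PER3 on the other. Whether reads were lost or gained there was not tested.

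DUSP1 ranked second of 10 MAP kinase phosphatases. DUSP9, which prefers ERK and p38, was above it at 33.7 ± 2.50 CPM per kb, 1.67 times DUSP1. DUSP16 (12.7 ± 0.0348), DUSP7 (10.5 ± 0.249), DUSP8 (7.64 ± 0.849) and DUSP5 (4.84 ± 0.342) lay below it. DUSP6, a phosphatase specific for ERK and a usual readout of its activity, was low at 0.349 ± 0.0230 CPM per kb, with 40.48% of its exonic bases covered by a gene on the other strand. DUSP4 (1.50 ± 0.0182), DUSP10 (0.984 ± 0.0588) and DUSP2 (0.317 ± 0.0460) were also low. Among the kinases that DUSP1 acts on, MAPK3, which encodes ERK1, was highest at 49.4 ± 1.69 CPM per kb, 2.45 times DUSP1.

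KLF9 ranked second of 6 related Krüppel-like genes. KLF16 was above it at 29.1 ± 0.730 CPM per kb, 2.52 times KLF9. KLF13, its close relative, was at 8.03 ± 0.369, and KLF10 (3.43 ± 0.223), KLF11 (3.22 ± 0.215) and KLF14 (1.24 ± 0.180) were lower. Over the longest transcript KLF13 came to 0.958 times KLF9, against 0.695 times over merged exons. NFKBIA had rank 3 of 8 genes of the IkappaB and NF-kappaB precursor family. NFKBIB, which encodes IkappaB-beta, stood at 36.7 ± 0.128 CPM per kb, 3.17 times NFKBIA, and the precursor gene NFKB2 at 22.1 ± 0.953. BCL3 (5.54 ± 0.391), NFKBID (5.06 ± 0.175), NFKBIE (4.71 ± 0.432), NFKB1 (4.17 ± 0.0518) and NFKBIZ (1.19 ± 0.0322) were below NFKBIA. FBXW11, a ubiquitin ligase subunit that marks IkappaB for destruction, and RELA, the NF-kappaB subunit that IkappaB-alpha holds, were close to NFKBIA at 14.1 ± 0.384 and 13.9 ± 0.0736 CPM per kb. With the longest transcript as the length, FBXW11 was at 0.98 times NFKBIA, where it had been at 1.22 times.

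The low genes CEBPD, ZBTB16, SGK1 and FAM107A each had a paralog above them, as DUSP1, KLF9 and NFKBIA did. CEBPD had rank 5 of 6 C/EBP genes, and CEBPB, which shares many of its targets, stood 11.4 times above it at 25.5 ± 0.168 CPM per kb. CEBPG (15.2 ± 0.505), CEBPA (5.81 ± 0.276) and DDIT3 (4.12 ± 0.532) were also above it, while CEBPE had no count in sample 1. For CEBPA 43.37% and for DDIT3 31.6% of the exonic bases are covered by genes on the other strand. ZBTB16 had rank 5 of 7 BTB zinc finger genes, below ZBTB7A (19.9 ± 0.450 CPM per kb), ZBTB7B (19.1 ± 0.685), ZBTB17 (10.6 ± 0.00348) and BCL6 (2.43 ± 0.224), and above ZBTB32 (0.320 ± 0.108) and ZBTB20 (0.0528 ± 0.0106). Exons of other genes on the same strand cover 47.73% of the exonic bases of ZBTB20. SGK1 was second of 3 kinases, with SGK3 at 0.909 ± 0.0436 and SGK2 at 0.136 ± 0.0178 CPM per kb. FAM107B, the one paralog of FAM107A, stood at 2.90 ± 0.0542 CPM per kb, 50.6 times FAM107A. That fold is imprecise, since it rests on 3 and 7 counts of FAM107A, and it was 67.1 with the longest transcript. These orders within families were the same in both samples for each pair of a gene and a paralog.

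**Figure D3:**
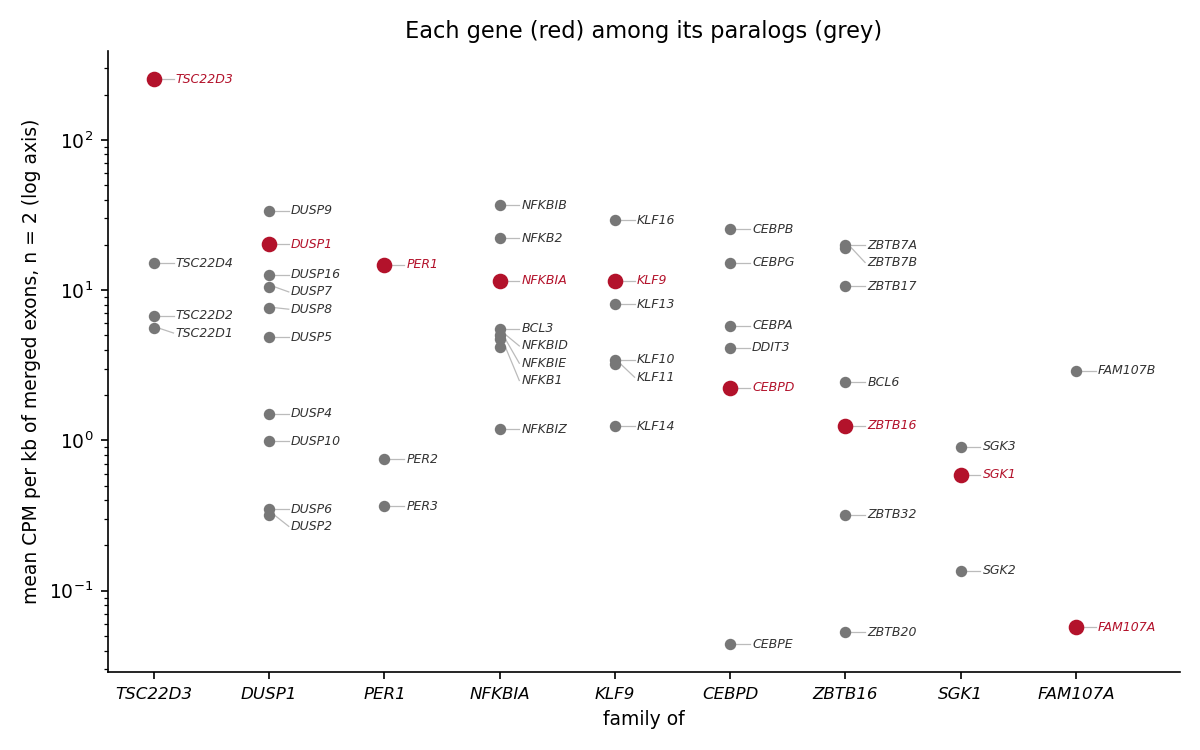
Mean level over 2 samples, as CPM per kilobase of merged exons on a log axis, of 9 of the genes (red) and their paralogs (grey), by family. TSC22D3 and PER1 lead their families, DUSP1 and KLF9 stand at rank 2, NFKBIA at rank 3, and CEBPD, ZBTB16 and FAM107A lie in the lower part of theirs. ERRFI1 is not shown, since its list holds targets and not paralogs.

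The genes were next set beside those of the proteins that they act on or with. ERRFI1 had rank 4 of 7 genes in a list with its receptor targets and kin, below ERBB2 (12.4 ± 0.535 CPM per kb), MET (10.2 ± 0.319) and TNK2 (9.65 ± 0.367). Below it were ERBB3 (4.43 ± 0.811) and EGFR (3.26 ± 0.0821). ERBB3 was 0.776 and 0.944 times ERRFI1 in samples 1 and 2, and 0.977 times with the longest transcript as the length. TNK2, ERBB3 and EGFR were named after their values were seen. The SGK1 partners were led by STUB1 (51.3 ± 2.57 CPM per kb), a ubiquitin ligase that turns over SGK1, and MTOR (20.1 ± 0.0160), whose second complex activates it. Of STUB1, 42.44% of the exonic bases are covered by JMJD8 on the other strand. SGK1 had rank 9 of the 10 genes in that list. Among the partners of ZBTB16, the histone deacetylase gene HDAC1 stood at 48.6 ± 2.43 CPM per kb, and ZBTB16 was the lowest of 10. HDAC4, named after its values were seen, was close, at 1.16 and 1.05 times ZBTB16 in samples 1 and 2. The counting intervals of HDAC4 and ZBTB16 overlapped in both samples. PER1 had rank 4 of 13 clock partners, below CSNK1E (42.2 ± 0.505 CPM per kb), CSNK1D (19.4 ± 0.569) and CSNK1A1 (15.6 ± 0.334), the casein kinase genes whose products phosphorylate period proteins. CSNK1A1 was named after its values were seen, and with the longest transcript as the length it lay below PER1, at 0.902 times. Exons of other genes on the same strand cover 37.41% of the exonic bases of CSNK1A1 and 21.07% of those of CSNK1E. The effect of this on their counts was not tested.

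The receptor itself was measured at an intermediate level. NR3C1, which encodes the glucocorticoid receptor, stood at 44.6 CPM in sample 1 and at 44.9 CPM in sample 2, or 4.88 ± 0.0239 CPM per kb, above 50.7% of the genes tested. NR3C2, the mineralocorticoid receptor, which also binds cortisol, had 12.2 and 10.9 CPM, or 1.75 ± 0.140 CPM per kb. HSD11B1, which makes cortisol from cortisone, had 1 count in sample 1 and 3 in sample 2. Of the 8 genes tested in this list of receptors and hormone handling, 2 passed the binomial test, where 8.97% of all genes did, and both were higher in sample 2. HSD11B2, which inactivates cortisol, had 34 and 133 counts and a ratio of 0.538 (0.358 to 0.790, adjusted p = 0.0152). H6PD, which supplies HSD11B1 with its cofactor, had 352 and 989 counts and a ratio of 0.750 (0.662 to 0.847, adjusted p = 1.38e-04). HSD11B1, HSD11B2 and H6PD were chosen for the text after their values were seen. SRD5A1, a steroid 5-alpha-reductase, was highest in this list at 7.27 ± 0.297 CPM per kb. All 20 genes of a list of receptor coregulators had at least 1 CPM, with a median of 12.6 CPM per kb, and TRIM28 (272 ± 9.43) and PELP1 (62.8 ± 0.874) led. Of these 20, 3 passed the binomial test, beside 8.97% of all genes, with 1 higher in sample 1 and 2 higher in sample 2.

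A wider list of 50 further glucocorticoid-induced genes had a lower median than the 10. Its median was 1.67 CPM per kb, 39 of the 50 averaged 1 CPM or more, and 19 lay above the median of all genes tested. All 19 were among the 39. The 11 genes under 1 CPM count in the median of the list, while the median of all genes tested leaves such genes out. RHOB, a small GTPase, led with 128 ± 30.6 CPM per kb, followed by the glutamine synthetase gene GLUL with 45.1 ± 0.470. FKBP5 was at 0.352 ± 0.0285 CPM per kb, below 9 of the 10 genes and above FAM107A. Of the 39 tested, 3 passed the binomial test and all were higher in sample 2. RHOB stood at 253 CPM in sample 1 and at 355 CPM in sample 2, a ratio of 0.711 (0.680 to 0.744). MFGE8, a secreted glycoprotein, had 103 and 117 CPM, and CDKN1C, a cell cycle inhibitor gene, had 9.73 and 13.5 CPM, both named after their values were seen. In all, 3 of 39 is near the 8.97% of all genes that passed. Of all genes that passed, 708 were higher in sample 1 and 685 in sample 2.

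**Figure D4:**
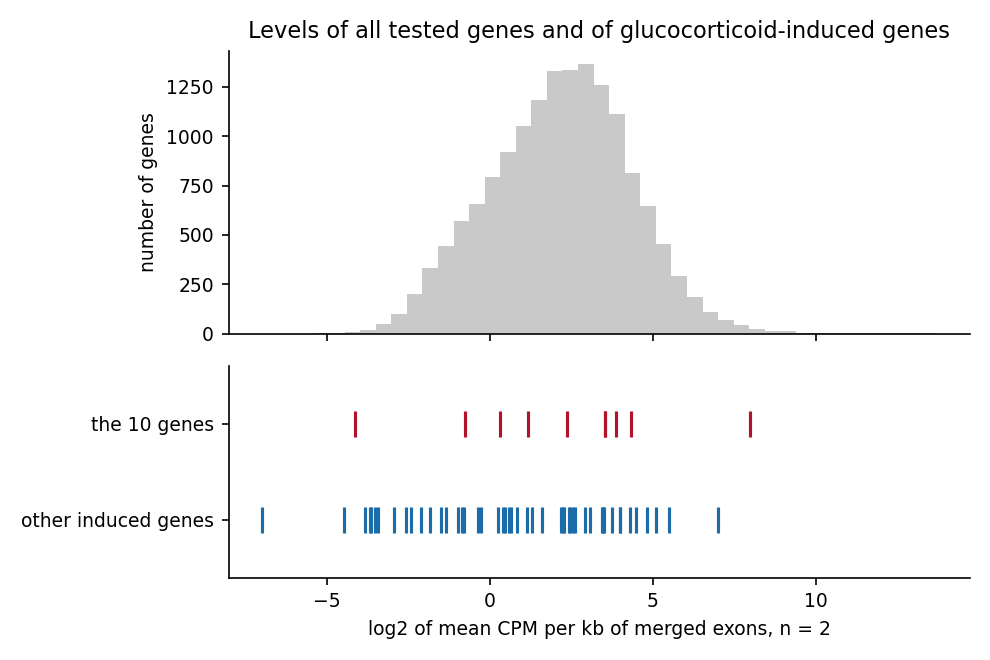
Top, number of tested genes by mean level over 2 samples, as log2 of CPM per kilobase of merged exons. Bottom, the 10 genes (red) and 49 of the 50 further glucocorticoid-induced genes (blue, without IGFBP1, which had no count) on the same axis. TSC22D3 is the mark farthest right in red and RHOB the one farthest right in blue, and both rows span most of the range of tested genes.

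Genes tied to other signals gave the setting in which these shared targets were read. In a list of 15 genes tied to CREB, the coactivator gene CRTC2 (33.7 ± 1.92 CPM per kb) and JUNB (15.2 ± 1.01) led and the median was 2.31 CPM per kb. That list holds CREB1 and coactivator genes of CREB beside genes that CREB induces, so its median is not one of induced genes alone. Of these 15, 0 passed the binomial test between the samples, beside 8.97% of all genes. At an unadjusted p under 0.05 there was 1 of the 15, beside 3363 of the 15530 genes tested. In a list of 18 serum response genes, JUN (66.6 ± 17.2) and MYC (33.8 ± 0.332) led and the median was 5.28 CPM per kb. Of the 17 tested, 1 passed, JUN, with 1997 counts in sample 1 and 6093 in sample 2, where 8.97% of all genes passed. DUSP1, which is also a serum-induced gene, had a ratio whose interval held 1, and the difference between these genes was not tested.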

How the data were processed

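Total RNA of 2 HEK293T samples was sequenced from directional libraries, per the labels' protocols. The authors deposited whole-number counts per Ensembl gene and CPM per sample. STAR 2.7.7a, edgeR and the build GRCh38 are named in the submitters' processing notes. The annotation and the counting program with its strand setting remain not given in the sources used here. In each library the deposited CPM were a fixed multiple of the counts (100% whole within 1e-06), and the library size behind them was 3.78% and 2.68% above the column totals of samples 1 and 2.

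The 10 genes and all lists were chosen with earlier results of these data known. In the lists, 1 name matched no gene. Lengths, coordinates and overlaps came from GENCODE 29, and 99.5 to 100% of the 50-base stretches of each of the 10 genes occur in no other gene's transcript. Intervals are 95% exact Poisson (levels) or Clopper-Pearson (ratios) and cover counting error only. The log2 ratio used CPM + 1. The exact binomial test used the share set by the deposited scaling, for genes averaging 1 CPM or more, and was tested on simulated data. A quasi-likelihood fit of edgeR has no residual degrees of freedom here. Named genes were the 10, FKBP5, NR3C1, NR3C2, the paralogs and the 2 highest per kilobase of every other list. A gene that this rule selects is not reported here. Start regions printed were those of the highest and lowest gene and of genes with a full CRE, GRE or NF-kappaB match. Where a gene has several, the one with a TATA box (TSC22D3) or the most upstream (FAM107A) was taken after the sequences were seen. Python 3.11.15 (scipy 1.17.1, statsmodels 0.14.6), R 4.3.3, edgeR 4.0.16 and DESeq2 1.42.0 were used.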

Additional observations from a re-analysis of the deposited data

How the results depend on the processing

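Of the 9 genes tested, the count that differ between the samples was 0 with column totals and with TMM factors of edgeR, and 1 (TSC22D3, adjusted p = 0.0294) with DESeq2 size factors. It was 0 of the 10 tested without a filter and 0 of the 6 tested at a minimum of 10 CPM. Over all genes, 1393 of 15530 tested passed, 708 higher in sample 1 and 685 in sample 2. Column totals gave 1483 of 15606, split 902 and 581, and DESeq2 size factors 1412 of 15608, split 551 and 861. The counts were 1396 of 15610 with TMM, 972 of 41325 without a filter and 1466 of 10315 at a minimum of 10 CPM. The direction of every ratio of the 10 genes was the same under each scaling and with a pseudocount of 0.25 CPM. The median level of 8.34 CPM per kb became 9.24 with the longest transcript and 8.61 with column totals. It ran from 8.10 to 8.18 when 1 sample was left out, since a median of means need not lie between the medians of the samples. Genes above the median of all numbered 6 with the longest transcript and without either sample, 5 against protein-coding genes and 9 against all genes with a count. No paired analysis was possible because there is 1 group. Depth limits FAM107A most, with 3 and 7 counts.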
